A study of Mus musculus with 2 samples.

Results

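The Hox genes of clusters A to D were followed in central nervous system tissue of mouse embryos. The 38 members were taken from a list of gene symbols, matched to the stable gene identifiers of the deposited tables, and made up 38 of the 43346 genes measured. Cluster A gave 10 members, cluster B 10, cluster C 9 and cluster D 9. The tissue came from embryos of strain C57BL/6J at embryonic day 14, for which the labels name no mutation or treatment. The study holds 1 group with 2 biological replicates, here replicate 2 and replicate 1, each from littermates of both sexes pooled together. Polyadenylated RNA longer than 200 nucleotides was depleted of ribosomal RNA and sequenced from both ends with strand kept, with ERCC spike-in RNAs added. The labels do not say which levels of brain and spinal cord the dissection of either pool took in.

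Hox genes encode homeodomain transcription factors that give cells their position along the head-to-tail axis. In mammals they lie in 4 clusters, and genes at the same place in different clusters form a paralogue group, numbered from the 3′ end of a cluster (group 1) to its 5′ end (group 13). In the embryonic nervous system the 3′ genes are known for expression up to the hindbrain, genes in the middle for cervical and brachial cord, and the 5′ genes for thoracic, lumbar and tail levels, while forebrain and midbrain lack Hox expression.

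The tables held 134760822 expected counts on genes in replicate 2 and 99528934 in replicate 1, of which the members took 0.0298% in replicate 2 and 0.0277% in replicate 1. Where a gene showed 0 counts, 3 counts remain possible, which is 0.0223 CPM in replicate 2 and 0.0301 CPM in replicate 1. Markers of the labelled tissue were high, with a summed level of 3025 TPM (a share of all transcripts, corrected for length and depth) in replicate 2 and 2663 TPM in replicate 1 over 5 genes. The libraries differed in markers of other tissues. The 10 skeletal muscle markers summed to 15.1 TPM in replicate 2 and 668 TPM in replicate 1, the 7 cartilage markers to 126 TPM in replicate 2 and 800 TPM in replicate 1, and the 5 skin markers to 14.3 TPM in replicate 2 and 132 TPM in replicate 1. The 9 forebrain markers summed to 963 TPM in replicate 2 and 506 TPM in replicate 1. No marker gene was listed at 0 in either library. Because the tissue was measured in bulk, fewer cells of a type and less RNA per cell cannot be told apart in any value given here.

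Sequences within the clusters are given first, because the microRNA genes and start sites lie between the members described and are referred to with their levels. Clusters A to D also encode microRNAs, short RNAs that repress mRNAs paired to them, and the mature forms of both families were read from RefSeq on GRCm38.p6, with the seed (bases 2 to 8 from the 5′ end) in capitals. The miR-10 genes lie at chr11:96317186-96317208 on the plus strand, between Hoxb5 and Hoxb4, and at chr2:74726074-74726096 on the plus strand, inside the annotated extents of Hoxd3 and Hoxd4. The miR-196 genes lie at chr11:96265187-96265208 on the plus strand, between Hoxb13 and Hoxb9, at chr15:102973365-102973386 on the plus strand, between Hoxc10 and Hoxc9, and at chr6:52230129-52230150 on the minus strand, inside Hoxa9.
miR-10a-5p: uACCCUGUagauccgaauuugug
miR-10b-5p: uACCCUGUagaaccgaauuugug
miR-196a-5p: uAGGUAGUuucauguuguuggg
miR-196b-5p: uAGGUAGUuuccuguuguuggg
The members of each family share a seed and differ by a single base, U12A between miR-10a-5p and miR-10b-5p and A12C between miR-196a-5p and miR-196b-5p, counted from the 5′ end. All of these genes were listed at 0 counts in both replicates, with hairpins of 68 to 110 nucleotides that are shorter than the selected RNA.

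MiR-196 is known to direct cleavage of Hoxb8 mRNA, so the stretch of the Hoxb8 3′ untranslated region that pairs best with it was read from the GENCODE M21 transcript Hoxb8-201. It lies at chr11:96284888-96284909 (mm10, plus strand), starts 418 bases after the stop codon, and is printed with paired bases in capitals and the G:U wobble in lower case.
Hoxb8 site for miR-196a-5p: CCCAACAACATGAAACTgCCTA
Of its 22 bases, 21 pair with miR-196a-5p and 1 forms a wobble. The best stretch in any other member read reached 15 paired bases, in Hoxd8. An exact match to the miR-196 seed (actacct on the mRNA) stood in the longest 3′ untranslated region of 8 of 37 members (21.6%), with 4 matches in Hoxa7 and 2 in Hoxc8, against 1278 of 20605 genes (6.20%). The miR-10 seed match (acagggt) stood in 3 of 37 members (8.11%), Hoxa3, Hoxb3 and Hoxd1, against 12.7% of genes.

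Promoters from 250 bases before to 50 bases after the start site were available from RefSeq (GRCm38.p6) for 22 members, as 24 stretches of 300 bases. Those of Hoxa2, Hoxa5, Hoxa9 and Hoxb8 are printed because their start sites coincide with a transcript quantified here and because these genes cover the range of levels and of differences between replicates described with the members. They are, on the strand of the gene, chr6:52164782-52165081 (minus), chr6:52204538-52204837 (minus), chr6:52227321-52227620 (minus) and chr11:96281655-96281954 (plus). Capitals mark matches on either strand to TGATNNAT (a site of Pbx and Hox proteins bound together), TGACAG (Meis proteins), TTTATG (Cdx proteins), AGGTCA (the half-site of retinoic acid receptors) or TATAAA (the TATA box), and no 2 matches overlap.
Hoxa2: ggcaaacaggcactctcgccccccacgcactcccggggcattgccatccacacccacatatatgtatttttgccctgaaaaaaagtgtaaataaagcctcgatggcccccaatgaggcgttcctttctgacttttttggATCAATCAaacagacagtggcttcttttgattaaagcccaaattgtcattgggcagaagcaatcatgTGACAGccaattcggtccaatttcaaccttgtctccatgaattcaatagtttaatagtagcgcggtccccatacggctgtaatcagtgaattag
Hoxa5: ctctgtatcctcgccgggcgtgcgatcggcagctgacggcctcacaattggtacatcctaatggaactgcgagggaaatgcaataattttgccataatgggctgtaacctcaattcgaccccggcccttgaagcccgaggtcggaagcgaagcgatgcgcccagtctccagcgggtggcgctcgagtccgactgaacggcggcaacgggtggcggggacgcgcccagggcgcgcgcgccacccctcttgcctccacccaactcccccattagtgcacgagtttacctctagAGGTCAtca
Hoxa9: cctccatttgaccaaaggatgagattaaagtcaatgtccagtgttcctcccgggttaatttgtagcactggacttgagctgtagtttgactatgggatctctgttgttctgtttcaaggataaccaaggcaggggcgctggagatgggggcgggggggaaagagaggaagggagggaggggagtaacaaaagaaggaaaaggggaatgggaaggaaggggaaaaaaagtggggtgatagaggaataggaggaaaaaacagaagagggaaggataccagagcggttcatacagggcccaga
Hoxb8: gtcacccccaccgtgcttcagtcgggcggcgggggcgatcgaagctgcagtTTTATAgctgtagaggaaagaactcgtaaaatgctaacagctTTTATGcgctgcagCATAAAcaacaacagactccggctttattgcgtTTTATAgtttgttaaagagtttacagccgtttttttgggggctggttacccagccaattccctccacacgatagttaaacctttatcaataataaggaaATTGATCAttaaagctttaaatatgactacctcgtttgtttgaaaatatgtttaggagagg
The Hoxa2 promoter holds 1 TGATNNAT, at positions -111 to -104 from its start site, and 1 TGACAG. The Hoxb8 promoter holds 2 TTTATG, 2 TATAAA and 1 TGATNNAT, the Hoxa5 promoter 1 AGGTCA after the start, and the Hoxa9 promoter none of the 5 motifs. Over the 24 member promoters, TGATNNAT stood in 4 (16.7%), TTTATG in 5 (20.8%), AGGTCA in 7 (29.2%), TATAAA in 4 (16.7%) and TGACAG in 2 (8.33%). Over all 32851 promoters of that length, TGATNNAT stood in 8.85%, TTTATG in 11.9%, AGGTCA in 16.3%, TATAAA in 13.6% and TGACAG in 19.2%. A match is a match of letters and shows no binding.

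Of the 38 members, 22 reached a mean of 1 TPM, the level called detected here, where 36.0% of all genes did. Cluster B was the highest, with 51.0 ± 6.40% of the summed Hox TPM (SD, n = 2), followed by cluster A with 28.1 ± 4.81%, cluster D with 12.1 ± 5.29% and cluster C with 8.72 ± 3.70%. The order of clusters A and B was the same in both replicates, while C and D changed places. Cluster C summed to 31.8 TPM in replicate 2 and 15.2 TPM in replicate 1, and cluster D to 23.5 TPM in replicate 2 and 39.5 TPM in replicate 1. Detected members were 6 of 10 in cluster A, 8 of 10 in B, 4 of 9 in C and 4 of 9 in D. The most 5′ member at 1 TPM or more was Hoxa9, Hoxb9, Hoxc8 and Hoxd8 in replicate 2, against Hoxa6, Hoxb8, Hoxc6 and Hoxd8 in replicate 1, so at this cut the limit moved in clusters A, B and C. In cluster D it stayed at Hoxd8, which was barely over the cut in replicate 2, with 1.01 TPM against 1.61 TPM in replicate 1.

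**Figure D1:**
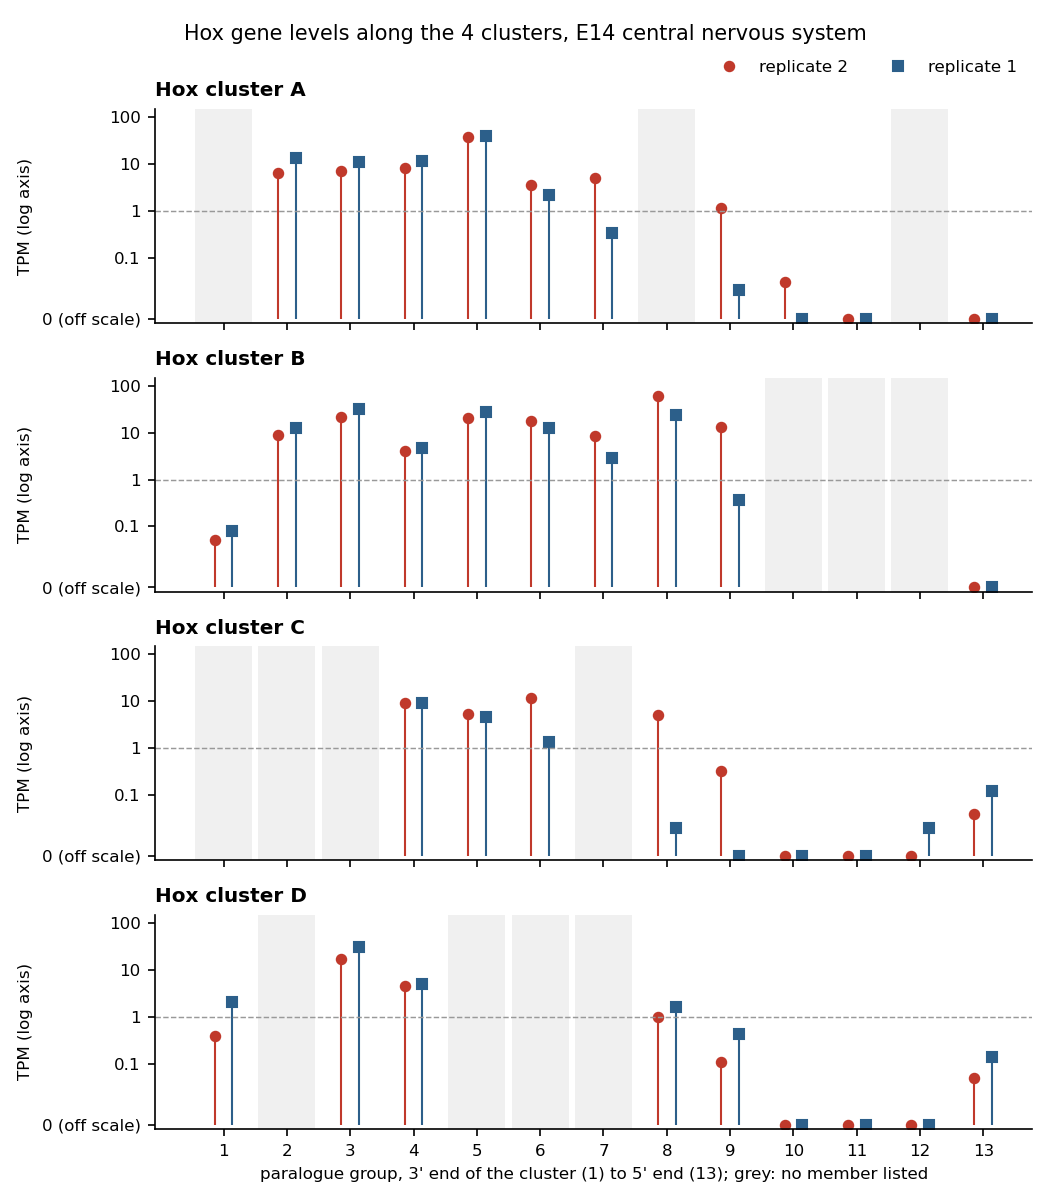
Level of each Hox gene in TPM, on a log axis with values of 0 drawn at the foot, against its paralogue group, for clusters A to D from top to bottom. Red circles are replicate 2, blue squares replicate 1, the dashed line is 1 TPM, and grey marks places with no listed member. Both replicates stay above 1 TPM from group 2 to group 6 in cluster A and from group 2 to group 8 in cluster B, and no gene of groups 10 to 13 reaches 1 TPM.

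Members of paralogue groups 1 to 3, which pattern the hindbrain and the tissues of the throat, summed to 61.6 TPM in replicate 2 and 101 TPM in replicate 1. Hoxb1, which marks the hindbrain segment of the facial motor neurons, was close to absent, with 0.05 TPM (8 counts) in replicate 2 and 0.08 TPM (10 counts) in replicate 1. Hoxd1, known from mouse pain-sensing neurons, had 0.39 TPM (55 counts) in replicate 2 and 2.02 TPM (213 counts) in replicate 1. Replicate 1 was the higher library for both genes of this group, by 5.08-fold for Hoxd1 (scaled counts) and within counting error for Hoxb1.

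Hoxa2, which gives the second pharyngeal arch its identity, had 6.39 TPM in replicate 2 and 13.7 TPM in replicate 1. Hoxb2, a target of Hoxb1 in the hindbrain, had 8.89 TPM in replicate 2 and 12.9 TPM in replicate 1. The group-3 genes act together in the neck and hindbrain. Hoxb3 had 21.4 TPM in replicate 2 and 31.4 TPM in replicate 1, Hoxd3 had 17.4 TPM in replicate 2 and 30.3 TPM in replicate 1, and Hoxa3 had 7.04 TPM in replicate 2 and 10.99 TPM in replicate 1. Hoxa2, Hoxb2 and all 3 group-3 genes were lower in replicate 2. Hoxd3 alone held most of cluster D, whose groups 1 to 3 made up 17.8 of 23.5 TPM in replicate 2 and 32.3 of 39.5 TPM in replicate 1.

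Groups 4 and 5 differed least between replicates and summed to 89.7 TPM in replicate 2 and 102 TPM in replicate 1. Hoxa5, which with Hoxc5 specifies the phrenic motor neurons of the cervical cord, was the highest gene of cluster A at 38.7 ± 1.62 TPM (SD, n = 2). Hoxc5 reached 5.07 ± 0.530 TPM, and Hoxb5, known from the migration of gut neuron precursors, 24.0 ± 4.79 TPM. All 4 group-4 genes, which set a boundary in the caudal hindbrain, were detected, at 9.93 ± 2.12 TPM for Hoxa4, 9.06 ± 0.0566 for Hoxc4, 4.76 ± 0.339 for Hoxd4 and 4.33 ± 0.467 for Hoxb4. Hoxa4 was the lower of Hoxa4 and Hoxc4 in replicate 2 and the higher in replicate 1, while Hoxd4 was above Hoxb4 in both.

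Groups 6 to 9, which pattern the brachial and thoracic levels of the trunk, summed to 129 TPM in replicate 2 and 45.2 TPM in replicate 1. Hoxb8, which acts in the dorsal spinal cord and in a lineage of microglia, was the highest of all members in replicate 2 with 61.0 TPM, against 23.6 TPM in replicate 1, where its rank was 5. Hoxb6 had 17.98 TPM in replicate 2 and 12.4 TPM in replicate 1, and Hoxb7 had 8.49 TPM in replicate 2 and 2.92 TPM in replicate 1. Hoxb9, a gene of thoracic levels, had 13.1 TPM (2595 counts) in replicate 2 and 0.36 TPM (52 counts) in replicate 1. All 4 genes of cluster B in this range were higher in replicate 2, together 100.6 TPM in replicate 2 against 39.3 TPM in replicate 1.

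Hoxc6, which marks motor neurons that supply the forelimb, had 11.9 TPM (1361 counts) in replicate 2 and 1.32 TPM (116 counts) in replicate 1. Hoxc8, which divides forelimb motor neurons into pools, had 4.99 TPM (721 counts) in replicate 2 and 0.02 TPM (2 counts) in replicate 1. Hoxc9, which sets the thoracic motor columns, had 0.32 TPM (58 counts) in replicate 2 and was listed at 0 in replicate 1. In replicate 1 the level fell away between Hoxc5 and Hoxc8, where replicate 2 stayed within 4.99 to 11.9 TPM.

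In cluster A, Hoxa6 had 3.65 TPM (211 counts) in replicate 2 and 2.19 TPM (94 counts) in replicate 1. Hoxa7, like Hoxa6 a patterning gene of the thoracic skeleton, had 5.02 TPM (770 counts) in replicate 2 and 0.34 TPM (39 counts) in replicate 1. Hoxa9, known from thoracic and lumbar patterning and from blood stem cells, had 1.18 TPM (160 counts) in replicate 2 and 0.02 TPM (1 count) in replicate 1. The ratio of replicate 2 to replicate 1 rose from Hoxa6 through Hoxa7 to Hoxa9, where it rests on 1 count in replicate 1.

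Cluster D went the other way in this range. Hoxd8, which acts with its neighbours in the lumbar region, had 1.01 TPM (188 counts) in replicate 2 and 1.61 TPM (232 counts) in replicate 1. Hoxd9, known from patterning of the lumbosacral region, had 0.11 TPM (18 counts) in replicate 2 and 0.42 TPM (52 counts) in replicate 1. Group 8 thus spanned 61.0, 4.99 and 1.01 TPM for Hoxb8, Hoxc8 and Hoxd8 in replicate 2, against 23.6, 0.02 and 1.61 TPM in replicate 1. Group 9 spanned 13.1, 1.18, 0.32 and 0.11 TPM for Hoxb9, Hoxa9, Hoxc9 and Hoxd9 in replicate 2, against 0.36, 0.02, 0 and 0.42 TPM in replicate 1. Hoxd9 and Hoxb9 each had 52 counts in replicate 1, so their order there is not resolved. The members just under the level of 1 TPM were Hoxa9, Hoxd9 and Hoxc9, with means of 0.60, 0.27 and 0.16 TPM, and the one just above was Hoxd1.

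Genes of groups 10 to 13, which pattern the lumbar cord, the limbs and the tail end of the body, were near or at 0. None of these 12 members was detected and 8 had 0 counts in both replicates (Hoxa11, Hoxa13, Hoxb13, Hoxc10, Hoxc11, Hoxd10, Hoxd11 and Hoxd12). Hoxa10 had 7 counts in replicate 2 and 0 in replicate 1, and Hoxc12 had 0 counts in replicate 2 and 1 in replicate 1. The group-13 genes Hoxc13, known from hair and nails, and Hoxd13, known from digits, had 8 and 9 counts in replicate 2, against 17 and 20 counts in replicate 1. Together the 12 genes held 24 counts in replicate 2 and 38 in replicate 1, and no difference is read from counts this low.

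**Figure D2:**
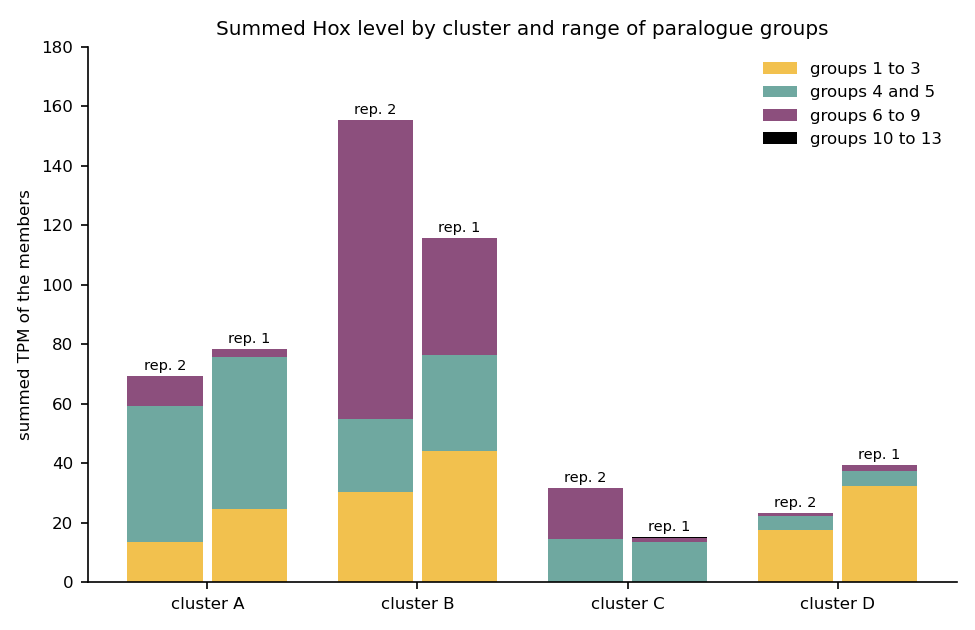
Summed TPM of the members of each cluster, with replicate 2 in the left bar and replicate 1 in the right bar of each pair, split by range of paralogue groups. Groups 6 to 9 of cluster B reach 100.6 TPM in replicate 2 and 39.3 TPM in replicate 1, and those of cluster D 1.12 TPM in replicate 2 and 2.03 TPM in replicate 1.

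The difference between the replicates was set on the log2 scale as replicate 2 over replicate 1, from expected counts scaled by TMM (trimmed mean of M values) with a prior count of 1, for genes with a mean of at least 200 counts. With 1 library for each replicate there is no test and no p-value, and the intervals given are exact 95% intervals that cover counting error only. Of the 38 members, 20 passed the filter. Over these the median log2 ratio was -0.06, against 0.02 over all 14340 genes compared. At least 2-fold higher in replicate 2 were 6 of the 20, where 0.286% of all genes were, and 1 of the 20 was at least 2-fold lower, where 3.95% of all genes were. Those 6 were Hoxc8, Hoxb9, Hoxa7, Hoxc6, Hoxb7 and Hoxb8, which held ranks 1, 3, 4, 5, 7 and 10 from the top among 13501 protein-coding genes. Hoxc8, Hoxb9, Hoxa7 and Hoxc6 passed the filter only through replicate 2 and so had to differ. Among the 15 members with at least 200 counts in both libraries, 2 were at least 2-fold higher in replicate 2 (Hoxb7 and Hoxb8) and 1 at least 2-fold lower (Hoxa2). The shares over all genes are for the filter on the mean, and none is given for this stricter filter.

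Ratios were higher towards the 5′ end of the clusters, with Hoxd8 as an exception. All 5 members compared in groups 1 to 3 were lower in replicate 2, with ratios of -1.09 (Hoxa2, interval -1.22 to -0.96) to -0.38 (Hoxb3). The 7 members of groups 4 and 5 lay between -0.43 (Hoxa4) and 0.22 (Hoxc5), with a median of -0.08, and Hoxd4, at -0.04, stood at 0.0026 when scaled to the spike-ins. Of the 8 members compared in groups 6 to 9, 7 were higher in replicate 2. Hoxa7, Hoxb9, Hoxc6 and Hoxc8 passed the filter only through replicate 2, so the filter fixed their direction. Hoxd8 passed only through replicate 1, so its direction was fixed as well. With at least 200 counts in both libraries, 3 members of this range remained, all of cluster B and all higher in replicate 2. Over all 14340 genes compared, 7818 were higher in replicate 2. Cluster B gave 0.60 for Hoxb6 (0.50 to 0.71), 1.55 for Hoxb7 (1.33 to 1.78), 1.33 for Hoxb8 (1.26 to 1.41) and 5.20 for Hoxb9 (4.83 to 5.65). Hoxa7 stood at 3.86 (3.42 to 4.39), Hoxc6 at 3.13 (2.86 to 3.42) and Hoxc8, with its 2 counts in replicate 1, at 7.57 (6.22 to 11.13). The exception was Hoxd8 at -0.71, with an upper limit of -0.43. On log2(TPM + 1), which understates the change of low genes, Hoxc8 stood at 2.55, Hoxb9 at 3.37, Hoxa7 at 2.17 and Hoxc6 at 2.47.

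Across the 20 members, Spearman's rho between paralogue group and ratio was 0.71, with the members whose direction the filter fixed included. It was 0.86 over the 15 members with at least 200 counts in both libraries. Those leave out the exception Hoxd8 (188 counts in replicate 2 and 232 in replicate 1) along with Hoxa7, Hoxb9, Hoxc6 and Hoxc8. From groups 6 to 9 they keep only Hoxb6, Hoxb7 and Hoxb8, so that end of the order rests on cluster B alone. The members compared share libraries, depth and chromosomal neighbours, so the correlation is a description across genes. Among members under the filter, Hoxa6 had a ratio of 0.75 (0.39 to 1.12) and Hoxa9 of 6.02 (4.41 to 12.22). Hoxc9, with 58 counts in replicate 2 and 0 in replicate 1, had a lower limit of 3.51 for its ratio. Hoxd1 had a ratio of -2.34 (-2.82 to -1.93) and Hoxd9 of -1.88 (-2.81 to -1.15). In groups 6 to 9, then, every member of clusters A, B and C, filtered or not, had more scaled counts in replicate 2, and both members of cluster D had fewer.

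**Figure D3:**
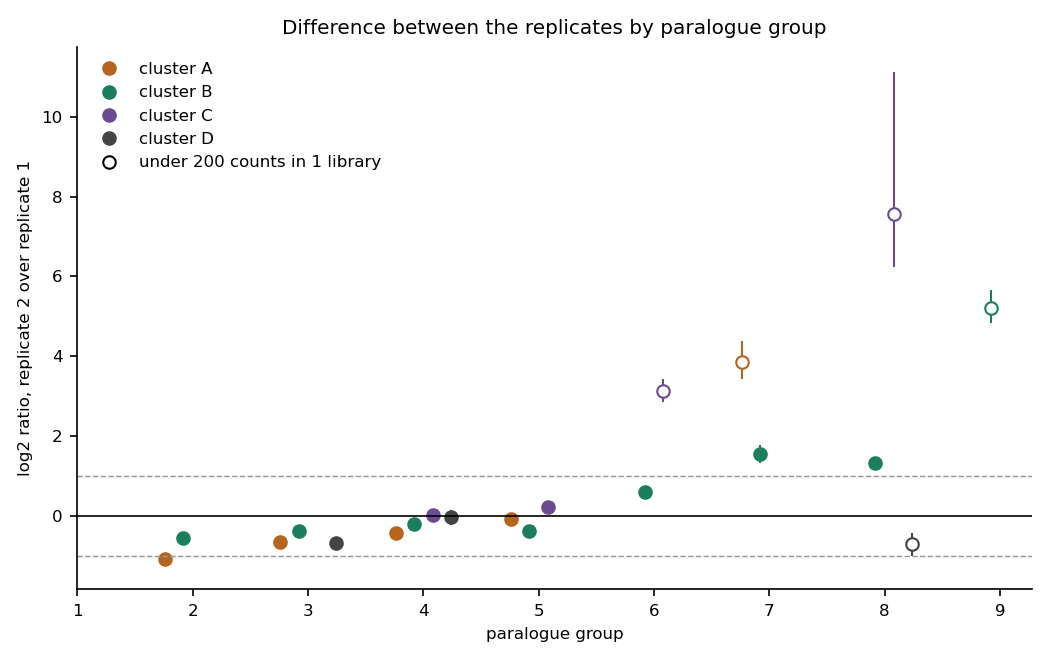
Log2 ratio of replicate 2 over replicate 1 (TMM-scaled expected counts) against paralogue group for the 20 members with a mean of at least 200 counts, coloured by cluster, with 95% counting intervals. Open points had under 200 counts in 1 library, and dashed lines mark 2-fold. Groups 2 and 3 lie between -1.09 and -0.38, groups 6 to 9 between 0.60 and 7.57 except Hoxd8 at -0.71.

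Values that moved with these ratios are given beside them. The marker lists were chosen with earlier results of these data known, so their counts are a description only. All 10 skeletal muscle markers compared, 6 of 7 cartilage markers, all 5 skin markers, 6 of 7 markers of peripheral ganglia and Schwann cells and all 4 compared markers of limb and lateral mesoderm were at least 2-fold lower in replicate 2, where 3.95% of all genes compared were. Of these lists, 8 muscle genes and 1 gene in each of the others passed the filter only through replicate 1 and so had to differ. With at least 200 counts in both libraries, 2 of 2 muscle, 5 of 6 cartilage, 4 of 4 skin, 5 of 6 ganglion and Schwann cell and 3 of 3 limb and mesoderm markers were at least 2-fold lower in replicate 2. The share of 3.95% is for the filter on the mean, and none is given for this stricter filter. All 9 forebrain markers were higher in replicate 2, with a median of 0.91, where 7818 of all 14340 genes compared were higher. Of the 9, 4 were at least 2-fold higher, where 0.286% of all genes compared were. Of 12 markers of cord and hindbrain neurons compared, 10 were lower in replicate 2, with a median of -0.64. All 14 listed genes of that kind summed to 91.9 TPM in replicate 2 and 111 TPM in replicate 1. The 5 markers of the central nervous system lay between 0.02 and 0.59. Whether any of these tissues takes part in the Hox ratios was not tested, and the axial level of the dissected tissue and the replicate cannot be told apart.

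**Figure D4:**
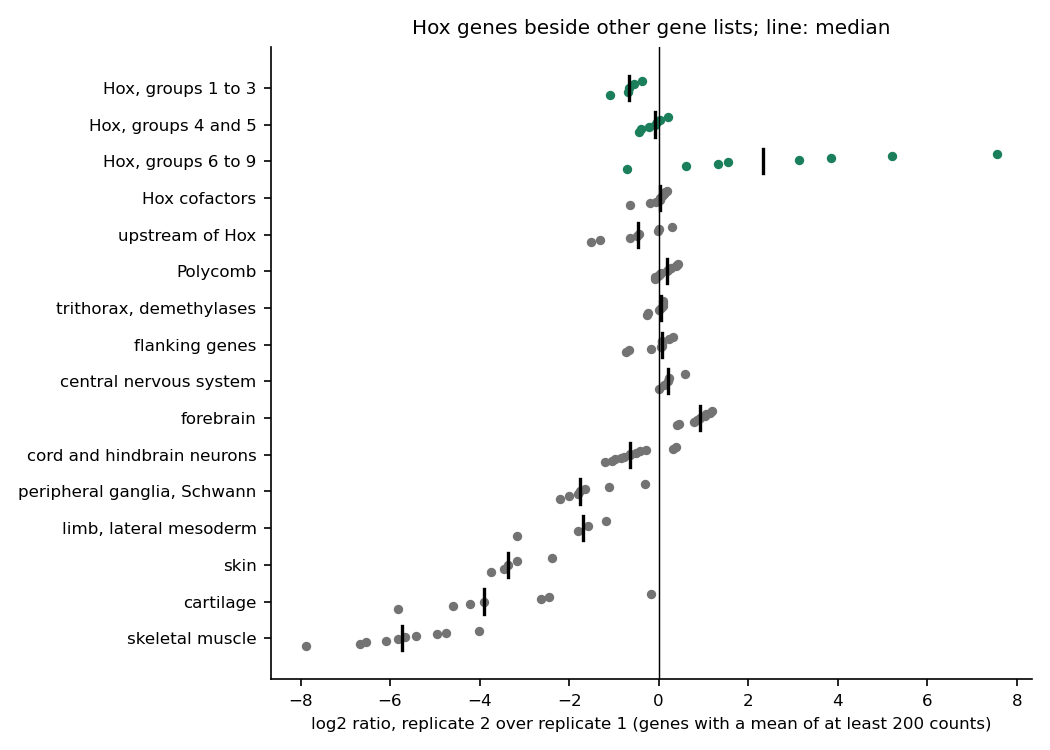
Log2 ratio of replicate 2 over replicate 1 for single genes (points) with a mean of at least 200 counts, by list from top to bottom, with the list's median as a black line and the Hox genes in green. The median runs from -5.74 for skeletal muscle to 2.34 for Hox groups 6 to 9, while Hox cofactors lie at 0.03. Over genes with at least 200 counts in both libraries the medians are -5.38 for skeletal muscle (2 genes) and 1.33 for Hox groups 6 to 9 (3 genes, all of cluster B).

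Of all genes compared, 0.286% were at least 2-fold higher and 3.95% at least 2-fold lower in replicate 2, so short lists can hold none. The 9 cofactors of the Pbx, Meis and Pknox families, which bind DNA together with Hox proteins, were all detected and none was 2-fold apart. The highest were Meis2 with 173 TPM in replicate 2 and 172.7 TPM in replicate 1, Meis3 with 169 TPM in replicate 2 and 158 TPM in replicate 1, and Pbx3 with 112 TPM in replicate 2 and 129 TPM in replicate 1. Together the cofactors reached 753 TPM in replicate 2 and 766 TPM in replicate 1, against 280.1 TPM in replicate 2 and 249 TPM in replicate 1 for all Hox members. Meis1 had the lowest ratio of the list, at -0.65.

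Of 14 factors known to act upstream of Hox genes, 8 were detected, where 36.0% of all genes were. Of the 8 compared, 2 were at least 2-fold lower in replicate 2, where 3.95% of all genes compared were. These were Rarg, a retinoic acid receptor, with 8.83 TPM in replicate 2 and 24.4 TPM in replicate 1, and Cyp26b1, an enzyme that degrades retinoic acid, with 9.72 TPM in replicate 2 and 24.1 TPM in replicate 1. Gbx2, which sets the front border of the hindbrain, had the highest mean of the list, with 19.7 TPM in replicate 2 and 16.1 TPM in replicate 1. Under the filter, Cyp26a1 had 24 counts in replicate 2 and 180 in replicate 1, and Egr2 had 105 counts in replicate 2 and 183 in replicate 1. Cdx1, Cdx2 and Cdx4, activators of trunk Hox genes in earlier embryos, had at most 4 counts in either library.

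The 13 Polycomb genes, whose products keep Hox genes silent outside their domains, were all detected, with ratios of -0.08 to 0.44 and a median of 0.18. Ezh2, which methylates histone H3 at lysine 27, had 169 TPM in replicate 2 and 131 TPM in replicate 1, Phc2 had 156 TPM in replicate 2 and 135 TPM in replicate 1, and Pcgf2 had 142 TPM in replicate 2 and 140.3 TPM in replicate 1. The 7 genes for trithorax proteins and H3K27 demethylases, which oppose Polycomb, had ratios of -0.26 to 0.11, led by Men1 with 88.4 TPM in replicate 2 and 83.2 TPM in replicate 1, Ash2l with 75.1 TPM in replicate 2 and 70.05 TPM in replicate 1, and Kmt2b with 59.4 TPM in replicate 2 and 62.2 TPM in replicate 1. No gene of either list was 2-fold apart. Of all genes compared, 0.286% were at least 2-fold higher and 3.95% at least 2-fold lower in replicate 2, so lists this short can hold none.

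No gene that flanks the clusters was 2-fold apart between the replicates. Of 13 listed, 11 were detected, and the ratios of the 10 compared ran from -0.74 to 0.32. A list this short can hold no such gene, where 0.286% of all genes compared were at least 2-fold higher and 3.95% lower in replicate 2. Mtx2, near cluster D, had 92.8 TPM in replicate 2 and 83.4 TPM in replicate 1, Cbx5, near cluster C, had 90.3 TPM in replicate 2 and 77.7 TPM in replicate 1, and Snx11, near cluster B, had 46.9 TPM in replicate 2 and 45.5 TPM in replicate 1. The homeobox genes Evx1 and Evx2, at the 5′ ends of clusters A and D and known from spinal interneurons, had 1.49 and 1.47 TPM in replicate 2, against 2.36 and 2.64 TPM in replicate 1.

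Most other genes inside the spans of the members were not detected. Of 15 inside cluster A, 3 were detected: Hoxaas2 with 2.63 TPM in replicate 2 and 7.54 TPM in replicate 1, Hoxaas3 with 2.25 TPM in replicate 2 and 3.09 TPM in replicate 1, and Gm15050 with 1.17 TPM in replicate 2 and 1.91 TPM in replicate 1, all on the strand opposite to the Hox genes. Cluster B held Hoxb5os with 2.67 TPM in replicate 2 and 1.78 TPM in replicate 1, and Hoxb3os with 1.25 TPM in replicate 2 and 2.73 TPM in replicate 1. Hoxaas2 and Hoxb3os, next to members of groups 2 and 3, had ratios of -1.47 and -1.12. The 7 other genes inside cluster C, among them the non-coding RNA gene Hotair, had no count in either library. Cluster D held Gm28230 with 2.64 TPM in replicate 2 and 1.37 TPM in replicate 1, and Haglr with 0.47 TPM in replicate 2 and 1.19 TPM in replicate 1.

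Transcripts were compared within the 22 detected members. A single transcript was listed for 6 of them, and of the other 16, 9 had a leading transcript with at least 80% of the gene's TPM in both replicates. The leading transcript was the same in both replicates for 21 of 22 genes. The exception was Hoxb6, where Hoxb6-202 held 51.8% in replicate 2 and 42.2% in replicate 1, and Hoxb6-201 the rest. Hoxb8 was split between Hoxb8-202, with 56.3% in replicate 2 and 53.5% in replicate 1, and Hoxb8-201, with 43.3% in replicate 2 and 45.1% in replicate 1. Hoxb3-202 held 65.1% in replicate 2 and 54.6% in replicate 1. For Hoxa7 and Hoxd3 the leading transcript was not typed as protein coding. Hoxa7-205, typed as a target of nonsense-mediated decay, held 82.3% in replicate 2 and 72.5% in replicate 1, the second from only 39 counts. Hoxd3-206, typed as a retained intron, held 52.2% in replicate 2 and 44.4% in replicate 1.

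**Figure D5:**
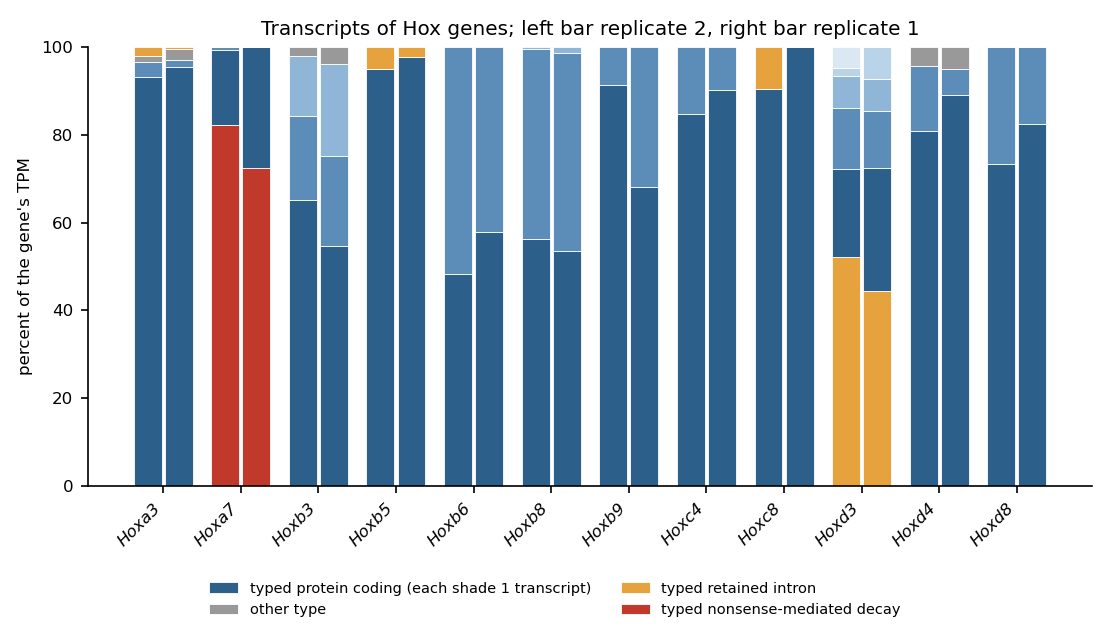
Percent of each gene's TPM in each listed transcript, stacked, for 12 detected Hox genes with several transcripts, with replicate 2 in the left bar and replicate 1 in the right bar. Blue shades are transcripts typed protein coding, orange retained introns, red nonsense-mediated decay and grey other types. Hoxa7 (82.3% in replicate 2 and 72.5% in replicate 1) and Hoxd3 (52.2% in replicate 2 and 44.4% in replicate 1) are led by a transcript that is not typed protein coding.

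Overlapping annotation limits some of these values. The annotated extents of Hoxd3 and Hoxd4 start within a few bases of each other, through transcripts with at most 5% of either gene's TPM. Their leading transcripts, Hoxd3-206 and Hoxd4-202, start further apart, at chr2:74745722 and chr2:74727074. The counts of Hoxd3 and Hoxd4, like those of Hoxa2 and Hoxa3, were fractional, so reads at these places were divided by estimate. Hoxa3 is also annotated across Hoxa4, Hoxa5 and Hoxa6, but these 3 genes had whole counts with a posterior SD of 0. The posterior SD deposited with the counts was 1.26% of the count for Hoxd3 in replicate 2 and 0.705% in replicate 1, and for Hoxd4 2.73% in replicate 2 and 2.50% in replicate 1. For Hoxa3 it was 0.241% in replicate 2 and 0.0746% in replicate 1. The other genes with fractional counts at these places included Gm28308 and Gm28230, which are annotated across neighbouring Hox genes. Gm28230 took 742 counts in replicate 2 and 289 in replicate 1, beside 555 in replicate 2 and 428 in replicate 1 for Hoxd4. How far the division of these reads moves the Hoxd3 and Hoxd4 ratios was not tested.

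Splice junctions, deposited on mm9 in fields that no label ties to the numbered replicates, were summed over both fields. Junctions within the cluster spans held 8344 reads, of which 7141 (85.6%) lay within a member and 25 (0.300%) joined 2 members. Hoxd4 was not listed among the mm9 genes and lies inside the extent of Hoxd3, and Hoxa3 extends over Hoxa4, Hoxa5 and Hoxa6. Junctions that join these genes count as within a member, so the number that joined 2 members may be too low. In Hoxb8, introns from chr11:96144701-96145479 and chr11:96144701-96145476 (mm9, plus strand) had 575 and 398 reads, so 2 acceptor sites 3 bases apart were both in use. Hoxb3 showed the same spacing, with 89 reads on chr11:96206011-96206859 and 40 on chr11:96206011-96206862. A 30250-base intron, chr11:96154328-96184577, led from the extent of Hoxb6 past Hoxb5 and Hoxb4 to a point 5′ of the extent of Hoxb3, with 39 reads. Another intron ending at that base, chr11:96182305-96184577, started in Hoxb4 and had 26 reads.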

How the data were processed

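Values came from 2 libraries of 1 group. The deposited mm10 tables hold expected counts, which are estimates and can be fractional, and TPM for genes and transcripts of GENCODE M4, as the deposited text states, and they list for every transcript its percent of the TPM of the gene. The aligner and the program that quantified are, for these tables, not given in the sources used here. Tables deposited on mm9 hold RPKM of Ensembl release 65 genes and counts of reads over splice junctions, each in a pair of fields that no label ties to the replicates, so their mean or sum was used.

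Symbols and positions came from GENCODE M21 by stable identifier, which matched 42462 of 43346 genes. Members and gene lists were chosen with earlier results of these data known. Every member was described, with values per replicate for those with a mean of at least 1 TPM and the 3 just under. From each other list the 3 highest genes and those at least 2-fold apart were named, and marker lists were summed instead. Expected counts were scaled by TMM in edgeR 4.0.16 (R 4.3.3), with a prior count of 1 and a minimum mean of 200 counts. On simulated data with 14156 unchanged genes and 49 or 50 changed genes at each size, known log2 ratios of -2, -1, 1 and 2 came back as medians of -2.00, -0.98, 1.04 and 2.06. The replicates differed beyond sampling noise, with a chi-square per degree of freedom of 141 over 19425 genes. The labels give both pools the same donor identifier, so their spread is that of 2 pools of littermates. Alternatives were DESeq2 1.42.0 size factors, total counts, spike-ins, other filters, thresholds and pseudocounts, mm9 RPKM and each replicate alone. Reads carry no molecular identifiers, so intervals and floors cover counting error only. Other steps ran in Python 3.11.15 with scipy 1.17.1, numpy 2.4.6, pandas 2.3.3 and matplotlib 3.10.9.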

Additional observations from a re-analysis of the deposited data

How the results depend on the processing

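Each replicate alone gave 19 to 22 detected members, and shares of the summed Hox TPM of 24.7 to 31.5% for cluster A, 46.5 to 55.5% for B, 6.11 to 11.3% for C and 8.38 to 15.9% for D. The mm9 RPKM put 11 members at 1 RPKM or more, on a scale whose values are a median of 0.126 of the members' TPM, and gave cluster B 44.4%. With no filter on low counts the median log2 ratio was -0.15 over 30 members. Scaling to the spike-ins moved Hoxd4 to 0.0026, and the other 19 single ratios kept their sign under every scaling and pseudocount tried. On log2(TPM + 1), 8 of the 20 ratios moved beyond their counting interval, among them Hoxc8 to 2.55, Hoxb9 to 3.37, Hoxa7 to 2.17, Hoxc6 to 2.47 and Hoxb7 to 1.28. The number of members at least 2-fold higher in replicate 2 was 6 under every scaling and pseudocount, where 0.286% of all genes were under TMM. It was 8 with a minimum mean of 20 counts and 9 with no filter. The members added were Hoxa9, Hoxc9 and Hoxa10, with at most 1 count in replicate 1. They entered only through replicate 2, and no share over all genes is given for either looser setting. Ratios could not be given without a replicate, since they need both. No paired analysis was possible because the study has 1 group. With 2 pools, differences between clusters C and D are within the spread between replicates. Low counts in at least 1 library limit Hoxa7, Hoxa9, Hoxb1, Hoxb9, Hoxc8, Hoxc9, Hoxd1, Hoxd9 and the members of groups 10 to 13.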

Other observations

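Spliced reads on the strand opposite to the Hox genes were part of every cluster. They made up 12.4% of the junction reads within the span of cluster A, 11.1% in B, 16.1% in C and 6.48% in D, summed over both fields of the mm9 table. The best supported of them, chr11:96209703-96211322 on the minus strand, lay outside any listed member of cluster B and had 124 reads. Cluster B also held 48 reads on chr11:96154869-96168050, a minus-strand intron that ends within the extent of Hoxb6. The antisense genes annotated in cluster B on mm10, among them Hoxb3os and Hoxb5os, were not matched to these mm9 introns.

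In cluster C, minus-strand introns lay within the extent of Hoxc4, where no count fell on any of the 7 other genes annotated inside the cluster. The intron chr15:102858713-102862557 had 42 reads, chr15:102858713-102866168 had 33 reads and chr15:102858033-102858569 had 27 reads, so 2 of the 3 share an end at the same base. For comparison, the plus-strand intron of Hoxc4, chr15:102865593-102866067, had 204 reads. These introns were chosen after their counts had been seen, and no gene of the mm10 tables was assigned to them here.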
